A study of Mus musculus with 6 samples.

Results

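The transcripts described here are 9 long non-coding RNAs whose introns carry small nucleolar RNAs (snoRNAs) and whose spliced RNA is known to be decayed while it is translated: Gas5, Snhg1, Snhg3, Snhg5, Snhg6, Snhg8, Snhg12, Zfas1 and Epb41l4aos. They were chosen by symbol, with no measured value in the rule but with earlier results of these data known, and each Ensembl identifier was matched to its symbol in GENCODE M21. The 9 were found among the 55335 genes of the count tables, and all 9 passed the filter on low counts that left 13642 genes for testing. The RNA came from B16-BL6, a mouse melanoma line of C57BL/6 origin, grown in culture, with no treatment named in the labels. In the IFNγR1KO group, CRISPR-Cas9 with a guide against Ifngr1, which encodes the ligand-binding chain of the IFN-γ receptor, had disrupted the gene. The scrambled control group, labelled WT for genotype, had received Cas9 with a guide against GFP, so that both groups carried the lentiviral vector and had gone through puromycin selection. Each group had 3 libraries, numbered 1, 2 and 3 in the control and 10, 11 and 12 in IFNγR1KO. The study describes IFNγR1KO cells as single clones, and whether the 3 IFNγR1KO libraries were from the same clone is not stated in the labels, so a difference of a clone and a difference of the genotype cannot be told apart. Nothing says that the 3 cultures of a group were separate beyond the plating, so that p-values measure the spread between these libraries.

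snoRNAs guide enzymes that modify ribosomal RNA. Box C/D snoRNAs direct methylation of the ribose, and box H/ACA snoRNAs direct the conversion of uridine to pseudouridine. Most are cut out of introns after splicing, and the host transcript is what is left. In several host genes the spliced exons hold no long reading frame. Such an RNA is exported, ribosomes reach a stop codon early, and exon junctions that lie far downstream of the stop mark it for nonsense-mediated decay. Many of these host genes start transcription within a stretch of pyrimidines, the terminal oligopyrimidine (TOP) feature that they share with the genes for ribosomal proteins and that ties translation to growth signals. Gas5 was named for its accumulation in growth-arrested cells.

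An early stop was found in the annotated spliced transcript read for each of the 9, and 3 of these transcripts are shown. They are given from their first base to 15 bases past the stop, from GENCODE M21 on GRCm38, with the reading frame of the first ATG in capitals.
Gas5: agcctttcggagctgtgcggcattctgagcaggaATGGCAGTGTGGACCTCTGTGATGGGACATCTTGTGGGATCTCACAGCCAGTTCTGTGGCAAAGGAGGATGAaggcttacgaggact
Snhg8: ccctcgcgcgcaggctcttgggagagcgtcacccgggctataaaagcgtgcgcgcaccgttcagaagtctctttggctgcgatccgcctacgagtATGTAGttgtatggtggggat
Zfas1: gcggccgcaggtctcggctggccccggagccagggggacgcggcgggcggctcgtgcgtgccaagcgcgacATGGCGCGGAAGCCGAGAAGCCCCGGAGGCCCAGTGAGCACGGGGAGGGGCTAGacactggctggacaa
In Gas5, the transcript had 12 exons in 502 bases, its first frame closed after 23 codons, and 7 exon junctions lay more than 55 bases beyond the stop. In Snhg8 the first ATG was followed at once by a stop codon, and 2 junctions lay beyond that distance. The Zfas1 frame closed after 17 codons with 4 such junctions. For each member the transcript with the most exons was read, and in 9 of 9 at least 1 junction lay more than 55 bases after the stop, with 1 to 53 codons before it. Reading the transcript with the most exons favours such junctions. Neither the other transcripts of the members nor other lncRNAs were read, so the 9 of 9 has no background share. These are annotated models and not transcripts seen in these libraries.

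The starts of the genes are shown next, because the TOP feature lies there. Each window is 100 bases from the RefSeq promoter table on GRCm38.p6. Capitals mark TATAAA or TATATA between 45 and 16 bases before the annotated start, and a run of at least 5 pyrimidines led by C that begins within 10 bases of the start, both on the transcribed strand.
Gas5, chr1:161035106-161035205, plus strand: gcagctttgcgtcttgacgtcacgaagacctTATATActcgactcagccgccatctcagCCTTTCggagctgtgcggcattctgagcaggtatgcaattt
Snhg8, chr3:123508297-123508396, minus strand: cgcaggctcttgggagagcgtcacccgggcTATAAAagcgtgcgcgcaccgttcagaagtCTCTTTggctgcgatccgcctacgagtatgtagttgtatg
Snhg12, chr4:132308618-132308717, plus strand: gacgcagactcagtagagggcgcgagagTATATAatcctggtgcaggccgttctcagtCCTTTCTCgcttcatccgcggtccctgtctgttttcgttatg
Snhg5, chr9:88522858-88522957, minus strand: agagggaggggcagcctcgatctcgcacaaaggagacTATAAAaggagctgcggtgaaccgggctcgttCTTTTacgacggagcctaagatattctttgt
Snhg1, chr19:8723427-8723526, plus strand: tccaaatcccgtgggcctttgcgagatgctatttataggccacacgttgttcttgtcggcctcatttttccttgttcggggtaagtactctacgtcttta
These 4 windows with capitals hold both features, and the Snhg1 window holds neither by these limits. The table had 8 entries for the members, with 2 starts for Gas5 and none for Snhg6 and Epb41l4aos. TATAAA or TATATA stood in that position in 4 of the 8, against 2.96% of the 32851 promoters of the table. The pyrimidine run was present in 5 of 8, against 30.2% of all promoters. With at least 6 bases it was in 3 of 8, against 18.8%, and with at least 7 in 1 of 8, against 11.9%. Both limits were set after the sequences had been read, and a match of letters is a description and not a site in use. Annotated GENCODE transcripts whose own first bases are C and 4 more pyrimidines were 5 of 25 in Gas5, 3 of 10 in Snhg12 and 1 of 3 in Snhg8. They were 1 of 6 in Snhg5 and 1 of 5 in each of Snhg3, Snhg6 and Zfas1. In Snhg1 they were 0 of 18 and in Epb41l4aos 0 of 2. Such first bases need not be the marked runs. In Snhg8 the counted transcript is the one shown above, which begins upstream of the TATAAA and not at the marked run. Other motifs were searched on both strands over the whole 300 bases of each promoter. The GC box GGGCGG was in 6 of 8 entries, against 35.7% of all promoters, and CCAAT was in 3 of 8, against 37.4%. The cyclic AMP element TGACGTCA was in 1 of 8, against 1.79%. TGATGNAA, the element read by ATF4, was in 0 of 8, against 3.97% of all promoters. The E-box CACGTG was also in 0 of 8, against 7.15%. TTCNNNGAA, searched as the GAS element, was in 0 of 8, against 8.30%. TGACG, the first bases of the cyclic AMP element, was in 3 of 8, against 20.8%.

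The 9 members contained 33 annotated snoRNA genes, 10 of them in Gas5, 8 in Snhg1, 5 in Snhg12 and 3 in Zfas1. Snhg3 and Snhg5 each had 2, and Snhg6, Snhg8 and Epb41l4aos had 1 each. Snord80 in Gas5 and Snora16a in Snhg12 are each annotated under more than 1 identifier at overlapping positions. The number of distinct loci is therefore smaller than 33. The following 4 box C/D snoRNAs, with box C (TGATGA) and box D (CTGA) in capitals, stand for the stable product of 4 hosts (GENCODE M21, GRCm38).
Snord47 in Gas5, chr1:161038082-161038158, plus strand: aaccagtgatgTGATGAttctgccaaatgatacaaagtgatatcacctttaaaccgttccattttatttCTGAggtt
Snord99 in Snhg12, chr4:132310691-132310764, plus strand: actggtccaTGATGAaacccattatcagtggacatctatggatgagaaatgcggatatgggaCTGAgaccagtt
Snord12 in Zfas1, chr2:167065276-167065365, plus strand: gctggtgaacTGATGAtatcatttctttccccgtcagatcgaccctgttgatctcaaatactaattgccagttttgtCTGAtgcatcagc
Snord50a in Snhg5, chr9:88521529-88521600, minus strand: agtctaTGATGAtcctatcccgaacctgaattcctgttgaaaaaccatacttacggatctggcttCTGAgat
The libraries were made from polyadenylated RNA, which leaves out most mature snoRNA. Of the 33 snoRNA genes, 28 had a count of 0 in every library and the other 5 had 86 counts in all. Because 29 of the 33 lie wholly inside annotated exons of their hosts, where retained-intron models are included, a read there falls on both genes. These snoRNA genes and other genes of the same strand cover from 8.32% to 20.9% of the exonic bases of Gas5, Snhg1, Snhg5, Snhg8, Snhg12 and Zfas1, and HTSeq can set such reads aside as ambiguous. Snora73b, an H/ACA snoRNA of Snhg3 outside the host's exons, was the 1 snoRNA tested. It had 9, 4 and 13 counts in the controls and 9, 14 and 9 in IFNγR1KO, which overlap (log2 fold change 0.75, adjusted p = 0.304 by edgeR). The snoRNAs themselves were thus not measured at a depth that could show a difference.

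The libraries had 9402640, 10579788 and 10196344 counts on genes in the control and 7122848, 7409479 and 6698956 in IFNγR1KO, so that 1 count was worth 0.0966 to 0.109 CPM, the counts divided by the effective library size and scaled to 1e+06, in the control and 0.135 to 0.142 CPM in IFNγR1KO. Ifngr1 was at 16.7, 14.3 and 16.6 CPM in the control and at 11.4, 11.5 and 11.5 CPM in IFNγR1KO, lower in each IFNγR1KO library but past no threshold (log2 fold change -0.47, SE 0.16, adjusted p = 0.0729 by edgeR). All 7 melanocyte markers were above 1 CPM in every library, and the summed leukocyte markers stayed between 0.562 and 1.42 CPM in all 6. The summed fibroblast list ran from 57.0 to 75.4 CPM in the control and from 129 to 133 CPM in IFNγR1KO, almost wholly through Col1a2 (52.5 to 69.5 CPM and 122 to 125 CPM). Pdgfra went the other way, from 3.18 to 4.13 CPM in the control to 1.76 to 2.42 CPM in IFNγR1KO, Dcn had 1 count in all and Lum had none, so the list did not move as a group. The keratinocyte markers summed to at most 0.326 CPM in any library, and the endothelial markers to at most 0.217 CPM.

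Scrambled control 3 and IFNγR1KO 12 stood apart from the other libraries of their groups in the host transcripts and the ribosomal protein genes. Scrambled control 3 had the lowest level of its group in 8 of the 9 members, and IFNγR1KO 12 in 9 of 9. The median member lay 0.39 below its group mean in scrambled control 3 and 0.49 below it in IFNγR1KO 12 on the log2 scale. The cytosolic ribosomal protein genes moved with them, by 0.37 and 0.39 on the same scale, while the median of all genes moved by 0.01 and 0.00. The TMM scaling holds that median near 0, so it cannot show whether other genes shifted in these libraries too. Genes with under 1 kb of exonic sequence held 4.12% and 4.36% of the counts in these libraries and 5.20% to 5.43% in the other 4. The counts of called members, of all called genes and of called ribosomal protein genes are therefore also given without both libraries.

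In IFNγR1KO cells, 6 of the 9 host transcripts were more abundant than in scrambled control cells and 0 were called lower by edgeR, DESeq2 or limma-voom (1 lower, Snhg3, at an unadjusted p under 0.05). An adjusted p under 0.05 in IFNγR1KO (edgeR's quasi-likelihood test, Benjamini-Hochberg over 13642 genes) was reached by 15.3% of all tested genes, with 7.73% of tested genes higher and 7.62% lower. The 6 were Snhg12, Snhg1, Zfas1, Gas5, Snhg8 and Snhg5, with log2 fold changes from 0.66 to 1.33. Snhg12, Snhg1 and Zfas1 also passed the study's limit of a log2 fold change above 1, as did 3.25% of tested genes in that direction and 1.96% in the other. At an adjusted p under 0.01, 3 of the 9 were called higher, beside 3.33% of tested genes. The median log2 fold change was 0.78 over the 9 members and 0.00 over all tested genes. The groups did not overlap in 6 of 9 members, each time with IFNγR1KO higher, against 16% of all tested genes in that direction and 32.6% in either. The values are shares of the RNA of whole cultures, and a change in every cell and a change in some cells cannot be told apart. In GENCODE M21 the annotated exons of Snhg1, Snhg8, Snhg12 and Zfas1 form 1 block, and those of Gas5 and Snhg5 form 3. Reads on their introns can thus count for the gene, and spliced and unspliced RNA were not told apart.

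**Figure D1:**
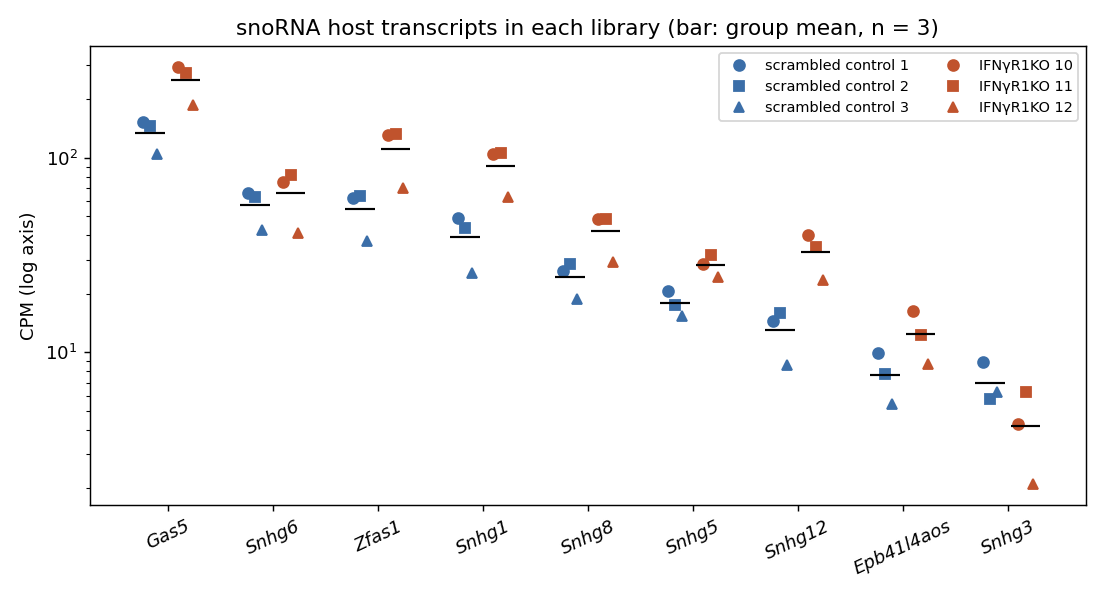
CPM (log axis) of the 9 host transcripts in each of the 3 scrambled control libraries (blue) and 3 IFNγR1KO libraries (orange), with a bar at each group mean. In Gas5, Zfas1, Snhg1, Snhg8, Snhg5 and Snhg12 every IFNγR1KO point lies above every control point, and the triangles, scrambled control 3 and IFNγR1KO 12, lie lowest of their group in most members.

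The 9 genes are described by level and role. Gas5 (ENSMUSG00000053332.13, chromosome 1, 161034422 to 161038539, plus strand, GRCm38), whose spliced RNA has been described as a decoy for the glucocorticoid receptor, was the member with the most counts. It was at 152, 146 and 105 CPM in scrambled control 1, 2 and 3 and at 294, 274 and 187 CPM in IFNγR1KO 10, 11 and 12. The IFNγR1KO library with the least Gas5 thus had more than the control library with the most. Means were 134 ± 25.9 CPM in the control and 251 ± 56.8 CPM in IFNγR1KO (SD, n = 3). On the log2 scale the difference was 0.91 with an SE of 0.19 (adjusted p = 0.0081 by edgeR, 95% interval 0.49 to 1.33).

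Snhg1 (ENSMUSG00000108414.1, chromosome 19, 8723475 to 8726443, plus strand) is known as a gene whose stable products lie in its introns, and it holds 8 snoRNA genes. Its level was 49.0, 43.5 and 25.6 CPM in the control libraries and 105, 106 and 63.3 CPM in the IFNγR1KO libraries. There was no overlap, and IFNγR1KO 12, the lowest of its group, was above scrambled control 1, the highest of the other. The log2 fold change was 1.22 with an SE of 0.24 (adjusted p = 0.0053 by edgeR), between means of 39.3 ± 12.2 and 91.3 ± 24.3 CPM (SD, n = 3).

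Snhg12 (ENSMUSG00000086290.9, chromosome 4, 132308623 to 132311024, plus strand) hosts box H/ACA snoRNAs and the box C/D snoRNA Snord99. It was at 14.5, 16.02 and 8.60 CPM in the control and at 40.3, 34.7 and 23.6 CPM in IFNγR1KO. Its fold change led the 9 members, and the groups were separate. Its log2 fold change was 1.33 with an SE of 0.24 (adjusted p = 0.0033 by edgeR, 95% interval 0.81 to 1.86).

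Zfas1 (ENSMUSG00000074578.14, chromosome 2, 167062934 to 167065862, plus strand), which starts antisense to the start of Znfx1 and hosts 3 box C/D snoRNAs, was at 62.0, 64.0 and 37.3 CPM in the control. Of its exonic bases, 2.80% overlap Znfx1 on the opposite strand. In IFNγR1KO it was at 132, 133 and 70.0 CPM. IFNγR1KO 12 was close to the upper control libraries, and the other 2 were far above them. For Zfas1 the log2 fold change was 1.04 with an SE of 0.25 (adjusted p = 0.0152 by edgeR), and the call was lost in edgeR without scrambled control 2 (adjusted p = 0.0532) or without IFNγR1KO 11 (adjusted p = 0.0753).

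Snhg8 (ENSMUSG00000104960.1, chromosome 3, 123507552 to 123508404, minus strand), the host of the box H/ACA snoRNA Snora24, was at 26.2, 28.6 and 18.7 CPM in the control and at 48.4, 48.8 and 29.1 CPM in IFNγR1KO. The lowest IFNγR1KO library and the highest control library lay side by side, at 29.1 and 28.6 CPM. For Snhg8 the log2 fold change was 0.78 with an SE of 0.21 (adjusted p = 0.0276 by edgeR). Leaving out scrambled control 1, scrambled control 2, IFNγR1KO 10 or IFNγR1KO 11 ended the call, with adjusted p from 0.0525 to 0.124.

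Snhg5 (ENSMUSG00000097195.9, chromosome 9, 88521050 to 88522929, minus strand), the host of Snord50a and Snord50b, was at 20.6, 17.5 and 15.5 CPM in the control and at 28.4, 31.8 and 24.5 CPM in IFNγR1KO. The groups were separate, and IFNγR1KO 12 differed less from its group here than in the other called members. The log2 fold change was 0.66 with an SE of 0.17 (adjusted p = 0.0195 by edgeR). The call was lost without scrambled control 2, IFNγR1KO 10 or IFNγR1KO 11, with adjusted p from 0.0617 to 0.103.

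The other 3 members were not called, each with its own pattern. Epb41l4aos (ENSMUSG00000087590.2, chromosome 18), a short transcript named for Epb41l4a on the opposite strand, was at 9.88, 7.76 and 5.41 CPM in the control and at 16.3, 12.3 and 8.72 CPM in IFNγR1KO. The groups overlapped through IFNγR1KO 12 and scrambled control 1. The log2 fold change was 0.70 with an SE of 0.27 (adjusted p = 0.0963 by edgeR, 95% interval 0.13 to 1.28), and without IFNγR1KO 12 it was 0.90 and past the threshold.

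Snhg6 (ENSMUSG00000098234.7, chromosome 1, 9941959 to 9944118, minus strand), the host of Snord87, was at 66.2, 62.9 and 42.8 CPM in the control and at 75.2, 81.6 and 41.3 CPM in IFNγR1KO. Its spread between libraries of a group was wider than the difference between groups. The log2 fold change was 0.21 with an SE of 0.23 (adjusted p = 0.621 by edgeR), and its 95% interval from -0.30 to 0.71 leaves room for a rise like that of Snhg5. Of the exonic bases of Snhg6, 11.1% overlap Mcmdc2 on the opposite strand.

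Snhg3 (ENSMUSG00000085241.7, chromosome 4, 132348014 to 132353686, minus strand), the host of Snora73a and Snora73b, was the member with a negative estimate and few counts. It was at 8.90, 5.77 and 6.28 CPM in the control and at 4.26, 6.23 and 2.11 CPM in IFNγR1KO, from 15 to 82 counts. The groups overlapped, and the log2 fold change was -0.72 with an SE of 0.33 (adjusted p = 0.163 by edgeR). Of its exonic bases, 71.5% overlap Gm17300 on the opposite strand, and 29.8% overlap Snora73a and Rcc1 on its own strand. The strand setting of the counting is not stated, so reads of Snhg3 and of these genes could not be told apart and the value is uncertain. Snhg3 lies 36989 bases from Snhg12 on chromosome 4.

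**Figure D2:**
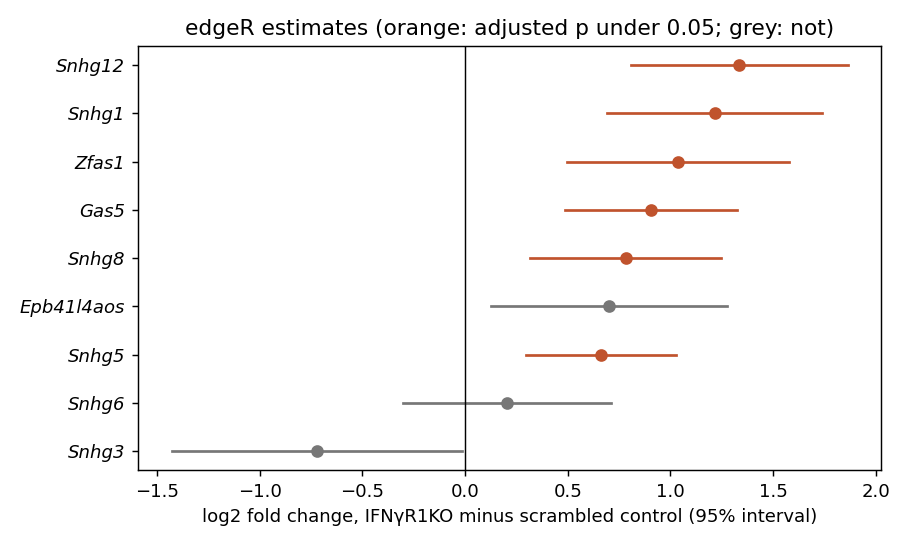
edgeR log2 fold change of IFNγR1KO against scrambled control for the 9 host transcripts, with 95% intervals, orange where the adjusted p was under 0.05 and grey where it was not. The 6 called estimates lie between 0.66 and 1.33, and Snhg3 is the estimate below 0.

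The number of members called higher depended on single libraries. It was 3 without scrambled control 2 and 3 without IFNγR1KO 11, where the genes called higher in the whole table numbered 535 and 571 in place of 1054. It was 7 without IFNγR1KO 12, with 1372 in the whole table, and 7 without both scrambled control 3 and IFNγR1KO 12. DEGs among the members numbered 1 without scrambled control 3 and 3 without both of these libraries. Gas5, Snhg1 and Snhg12 were called in all 13 alternative fits. The sign of each of the 9 estimates was the same in those 13 fits. A two-sided exact permutation test of 3 against 3 libraries cannot give a p under 0.1, which is what each of the 6 non-overlapping members reached. Of all 13642 tested genes, 1054 were called higher and 1039 lower, and 1174 and 755 with library totals in place of TMM. Without scrambled control 3 and IFNγR1KO 12 these numbers were 1447 and 1617.

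The members were next set against the ribosomal protein genes of the same library, since those moved with them between replicates. Summed over the 9, the host transcripts came to 410, 392 and 265 CPM in the control and to 743, 728 and 449.6 CPM in IFNγR1KO, a 1.80-fold difference of means. The 78 cytosolic ribosomal protein genes summed to 93150, 99286 and 66547 CPM in the control and 104336, 103070 and 70400 CPM in IFNγR1KO, a 1.07-fold difference. Of the 77 that were tested, 0 were called in either direction by edgeR, DESeq2 or limma-voom (1 higher and 0 lower at an unadjusted p under 0.05), and their median log2 fold change was 0.10. Without scrambled control 3 and IFNγR1KO 12, 7 of them were called higher and 1 lower. Per 1000 CPM of ribosomal protein RNA, the 9 host transcripts amounted to 4.40, 3.95 and 3.98 CPM in the control and 7.12, 7.06 and 6.39 CPM in IFNγR1KO. On this scale the spread within a group narrowed, and the means were 4.11 ± 0.252 and 6.86 ± 0.410 (SD, n = 3), a ratio of 1.67 (two-sided exact permutation p = 0.1, the smallest possible). The groups were separate for 7 of 9 members, with IFNγR1KO higher in each of the 7. How many of all tested genes separate on this scale was not counted. The share of 16% with IFNγR1KO higher belongs to the CPM scale, so the 7 have no background here. Epb41l4aos was among them, at 0.106, 0.0782 and 0.0813 CPM in the control and 0.157, 0.120 and 0.124 CPM in IFNγR1KO, while Snhg3 and Snhg6 overlapped. This scaling was chosen after the library pattern had been seen.

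**Figure D3:**
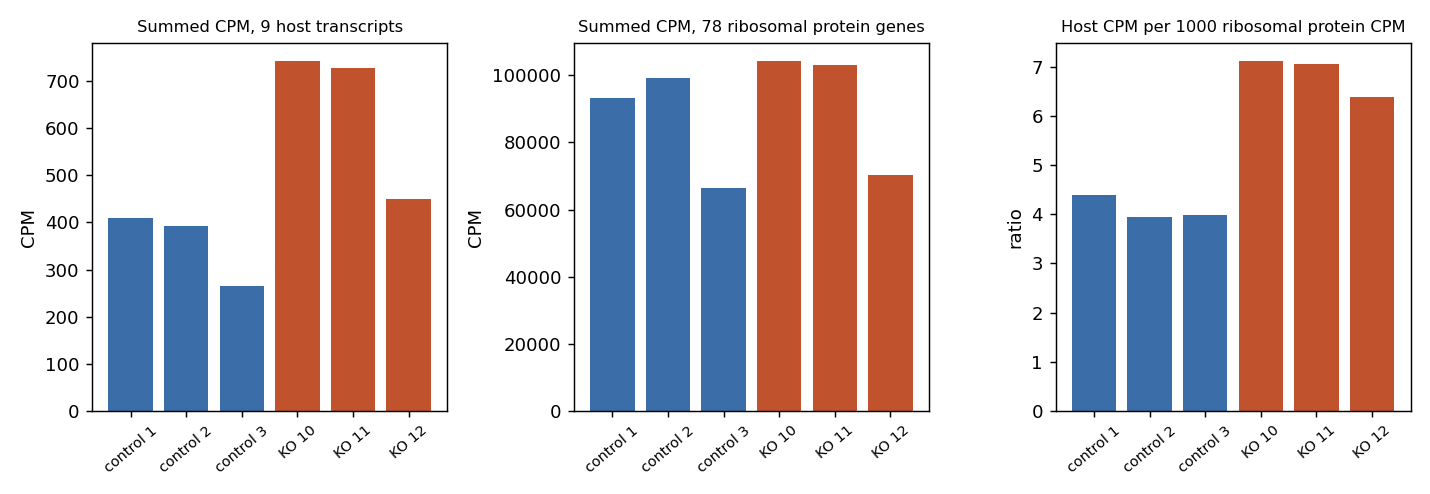
Bars give, for each of the 6 libraries, the summed CPM of the 9 host transcripts (left), the summed CPM of 78 cytosolic ribosomal protein genes (middle) and the first per 1000 CPM of the second (right). Scrambled control 3 and IFNγR1KO 12 are low in the left and middle panels, and the ratio runs from 3.95 to 4.40 in the control and from 6.39 to 7.12 in IFNγR1KO.

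Levels were compared between members per kilobase of all annotated exonic bases. In the control the order was Snhg6 (50.0 CPM per kb), Gas5 (35.7), Snhg8 (28.7), Zfas1 (18.6), Epb41l4aos (17.9), Snhg1 (13.3), Snhg5 (10.3), Snhg3 (7.08) and Snhg12 (5.44). Of neighbours in this order, Snhg8 and Zfas1 were the pair whose libraries did not overlap. In IFNγR1KO, Gas5 (66.9 CPM per kb) stood first, ahead of Snhg6 (57.6) and Snhg8 (49.4), and Snhg3 (4.26) stood last. In that group Epb41l4aos and Snhg5, and Snhg12 and Snhg3, were the neighbours without overlap. The order rests on the length: per kilobase of the spliced transcript with the most exons, Gas5 led the control with 267 CPM per kb and Snhg6 followed with 143, with no overlap. The annotated exons of Gas5, Snhg1, Snhg5, Snhg12, Snhg8 and Zfas1 include retained introns, which lengthen them.

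Some host genes share their start with a coding gene on the other strand. The design took the nearest such gene with a start within 2000 bases, by the outer bounds of GENCODE genes. It found 3. By those bounds Slc3a2, the heavy chain of amino acid transporters, starts 106 bases from Snhg1 in the opposite direction. The RefSeq promoter table instead has the start of Slc3a2 at base 8713897 of chromosome 19 and that of Snhg1 at 8723487. By that annotation the start of Slc3a2 lies outside the 2000 bases. Slc3a2 was at 254, 285 and 245 CPM in the control and 739, 699 and 699 CPM in IFNγR1KO, and rose with a log2 fold change of 1.45 and an SE of 0.14 (adjusted p = 4.9e-05 by edgeR). Both genes of this pair were thus higher, but Slc3a2 was not lower in scrambled control 3 or IFNγR1KO 12 to the degree that Snhg1 was. Zbtb37, a zinc finger gene 427 bases from the start of Gas5, had a log2 fold change of -0.03 (adjusted p = 0.937 by edgeR). Znfx1, an RNA helicase gene with a role in antiviral defence whose start is 81 bases from that of Zfas1, had a log2 fold change of -0.42 (adjusted p = 0.175 by edgeR). Without IFNγR1KO 12 it was called lower (-0.68, adjusted p = 0.0094 by edgeR), as it was without both scrambled control 3 and IFNγR1KO 12 (-0.55, adjusted p = 0.0147). At the start of Zfas1 the estimates of both genes thus had opposite signs.

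**Figure D4:**
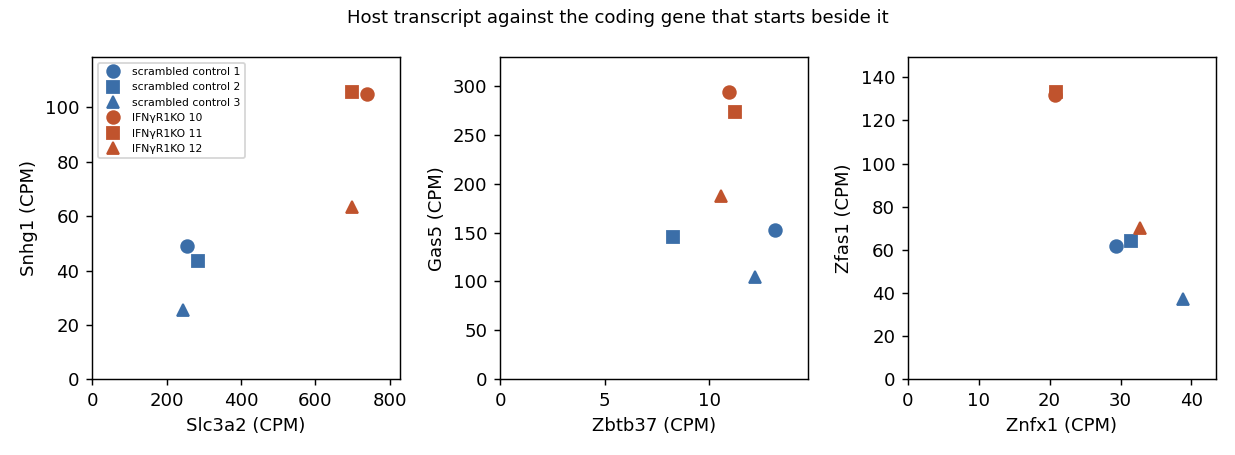
CPM of Snhg1, Gas5 and Zfas1 (vertical axes) against the coding gene that starts within 2000 bases on the opposite strand by GENCODE gene bounds (horizontal axes), 1 point per library. In the Snhg1 and Slc3a2 panel the IFNγR1KO points are to the upper right of the control points, while Zbtb37 and Znfx1 overlap between the groups.

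Genes that overlap the exons of Snhg3 and Snhg6 were looked up outside that rule, once the overlap was known. Rcc1, the nucleotide exchange factor of Ran, fell from 57.2, 73.8 and 65.4 CPM in the control to 34.5, 39.7 and 41.8 CPM in IFNγR1KO (log2 fold change -0.76, SE 0.15, adjusted p = 0.0044 by edgeR). Gm17300 had a log2 fold change of -0.63 (adjusted p = 0.125 by edgeR) and was called lower without scrambled control 3 (-0.90, adjusted p = 0.0050), without both low libraries (-0.78, adjusted p = 0.0049) and without the filter on low counts (adjusted p = 0.0142). Both genes thus share the direction of the estimate for Snhg3. Mcmdc2 had a log2 fold change of 0.10 (adjusted p = 0.846 by edgeR).

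Further snoRNA host lncRNAs were taken from a list of 14 symbols, of which 12 matched and 9 were tested. Of these 9, 3 rose and 0 were called lower by edgeR, DESeq2 or limma-voom (1 lower at an unadjusted p under 0.05), and the median log2 fold change was 0.39. The 3 were 2410006H16Rik, from 112 ± 35.2 to 339 ± 94.5 CPM (log2 fold change 1.59, adjusted p = 0.0014 by edgeR), Snhg15 (0.92, adjusted p = 0.0110) and Snhg17 (0.69, adjusted p = 0.0449). Without IFNγR1KO 11, 1 of the list was called higher. Of 15 tested lncRNA genes outside the 9 members that have an annotated snoRNA inside them, 3 were called higher and 1 lower, with a median of -0.15. Protein-coding genes that host snoRNAs gave 12 higher and 18 lower of 195, with a median of 0.00. These shares, 6.15% and 9.23%, are close to the 7.73% and 7.62% of all tested genes.

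Long non-coding RNAs without a snoRNA also gave calls. Of 10 tested from a list of 14, Malat1 (log2 fold change 1.26, adjusted p = 0.0025 by edgeR) and Neat1 (1.13, adjusted p = 0.0260) rose, both nuclear RNAs, and the median was 0.44. In this list 0 were lower by edgeR, DESeq2 or limma-voom, also at an unadjusted p under 0.05. Without scrambled control 2, IFNγR1KO 10 or IFNγR1KO 11, 1 was called higher. Among all 1340 tested lncRNA genes, 154 were called higher (11.5%) and 42 lower (3.13%), with a median of 0.09.

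The machinery that makes snoRNA particles and the machinery that removes host transcripts were also counted. Of 18 snoRNP proteins and assembly factors, 0 were called higher by edgeR, DESeq2 or limma-voom, also at an unadjusted p under 0.05, and 3 were lower by edgeR, with a median log2 fold change of -0.15. That is 16.7% of the list, beside 7.62% of all tested genes lower. The 3 were Nolc1, a nucleolar chaperone of snoRNPs (-0.65, adjusted p = 0.0225), Ruvbl1, an assembly ATPase (-0.57, adjusted p = 0.0161), and Dkc1, the pseudouridine synthase (-0.49, adjusted p = 0.0276). These 3 calls were lost without scrambled control 2, without IFNγR1KO 10 and without IFNγR1KO 11, where 0 of the list were lower by edgeR, while 6 were lower without both low libraries. Of 20 nonsense-mediated decay factors, 1 rose and 1 fell, with a median of -0.08. Each is 5% of the list, beside 7.73% higher and 7.62% lower of all tested genes. With 1 gene in each direction these shares are not told apart. Pnrc2, an adaptor between Upf1 and decapping, rose from 61.0 to 113 CPM (log2 fold change 0.89, adjusted p = 0.0020 by edgeR), and Rbm8a, a core protein of the exon junction complex, fell (-0.55, adjusted p = 0.0463). The call lower was lost with limma-voom, with library totals, and without scrambled control 2, IFNγR1KO 10 or IFNγR1KO 11. Upf1, Upf2 and the Smg genes were not called. Of 20 cytoplasmic RNA decay enzymes, Dcp1b, a decapping cofactor, rose (0.70, adjusted p = 0.0171 by edgeR) and Cnot6, a deadenylase, fell (-0.50, adjusted p = 0.0429), with a median of -0.05. The first call was lost without scrambled control 2 or IFNγR1KO 10. The second was lost with library totals and without each of the libraries in turn other than IFNγR1KO 12. Here too the share called was 5% in each direction, 1 gene each, which is not told apart from that of all tested genes.

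Coding transcripts known to be sensitive to the same decay gave 6 called higher of 12 by edgeR, with a median of 0.56, and 0 lower by edgeR, DESeq2 or limma-voom, also at an unadjusted p under 0.05. Of all tested genes, 7.73% were called higher. Ddit3 (log2 fold change 3.13), Gadd45a (2.89) and Atf3 (2.30) had the smallest adjusted p of the 6. The others called were Slc7a11, Atf4 and Ern1. All 6 are also genes of the cellular stress response, and the cause of their rise was not tested. Not called were Atg12 (0.43), Ifrd1 (0.30), Map3k14 (0.17), Cdkn1a (0.12), Tbl2 (-0.08) and Gadd45b (-0.36). The list was chosen with earlier results of these data known, so its share is not independent of them. Of 12 regulators of TOP messengers, 2 rose and 2 fell, with a median of 0.00. Each is 16.7% of the list, beside 7.73% higher and 7.62% lower of all tested genes. Eif4ebp1, which binds the cap-binding protein Eif4e and blocks its assembly with Eif4g (1.24, adjusted p = 0.0004 by edgeR), and Larp1b, a paralogue of the TOP-binding protein Larp1 (1.01, adjusted p = 0.0064), rose. Eif4ebp2 (-0.77, adjusted p = 0.0295 by edgeR) and Eif4e itself (-0.45, adjusted p = 0.0407) fell. Without scrambled control 2, 1 of the list was called higher. Both calls lower were lost with library totals and without scrambled control 2, IFNγR1KO 10 or IFNγR1KO 11, and 1 of the list was called lower without scrambled control 1, scrambled control 3 or IFNγR1KO 12.

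**Figure D5:**
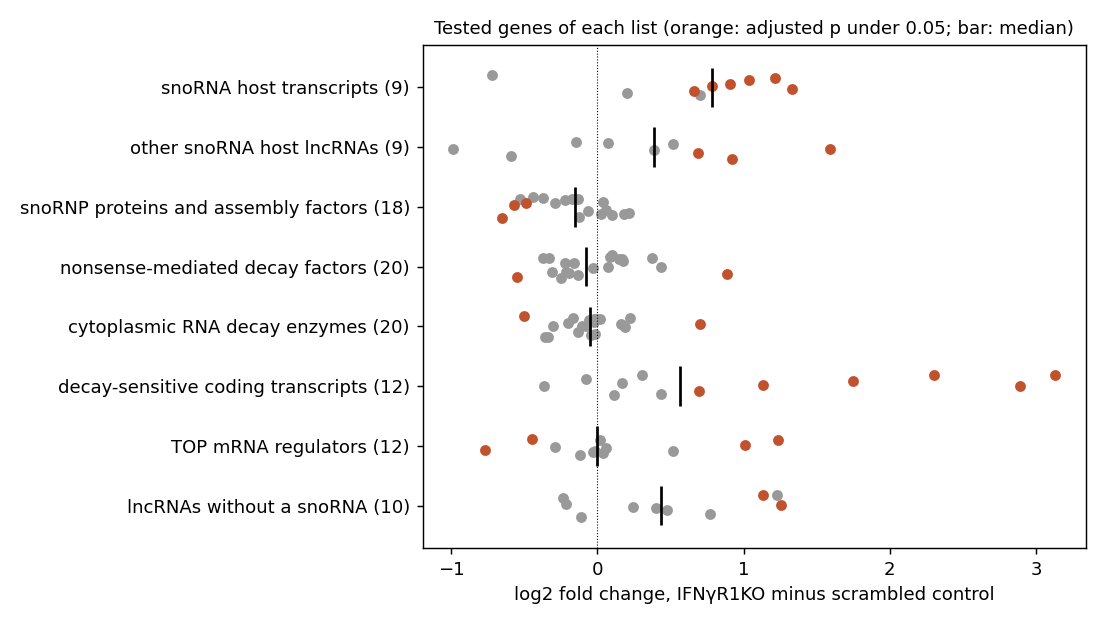
edgeR log2 fold change of each tested gene in the 9 host transcripts and in 7 comparison lists (number tested in parentheses), orange where the adjusted p was under 0.05, with a bar at each median. The host transcripts have a median of 0.78, and the factors of nonsense-mediated decay lie around 0, with a median of -0.08.

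The genes whose pattern over the 6 libraries was most like that of Gas5 were sought among 10618 genes with a mean of at least 5 CPM. By Pearson's r of log2 CPM these were Slc25a33, a mitochondrial nucleotide carrier, Mcrip1, Orc5, of the origin recognition complex, Map2k3os and Snhg15, each with r between 0.996 and 0.997. Snhg1 ranked at 10 in that order (r = 0.994), Snhg12 at 23, Zfas1 at 33, Snhg8 at 76, Snhg5 at 195 and Epb41l4aos at 326. Snhg6 (r = 0.67) and Snhg3 (r = -0.28) ranked far lower. The points share both the group difference and the low libraries, so r is a description of 6 libraries and carries no test.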

How the data were processed

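Polyadenylated RNA of 6 cultures was sequenced as paired ends. Per the study's methods, the authors aligned with STAR 2.7.5a, counted with HTSeq 0.11.2 and tested with DESeq2 1.34.0. They deposited raw counts per gene and library. The annotation release and strand setting of the counting are not given in the sources used here. GENCODE M21 held 55154 of the 55335 identifiers. Rows that name no gene took no part in library sizes, and 46.9% to 47.7% of read pairs were in no feature and 1.57% to 1.85% were ambiguous.

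CPM used TMM library sizes. Genes passed edgeR's filter (minimum count 10, minimum total 15). IFNγR1KO was compared with scrambled control in edgeR 4.0.16 under R 4.3.3 (glmQLFTest), p-values were adjusted by Benjamini-Hochberg over 13642 genes, and calls used a threshold of 0.05 and, for a DEG, a log2 fold change beyond 1. The SE was derived from the F statistic. Alternatives were DESeq2 1.42.0, limma 3.58.1 (voom), RLE size factors, library totals, no filter, thinning, leaving out libraries and a threshold of 0.01. The procedure was tested on simulated data. It recovered 13 of 67 changed genes at an absolute log2 fold change of 0.6, 51 of 66 at 1 and 62 of 63 at 2. Changes of 0.6 were thus mostly missed, and a gene not called may still differ by that much. Members, lists and comparisons were chosen with earlier results of these data known. Named were all members, their neighbours, 5 genes most like Gas5, and Ifngr1. From each list up to 3 called genes per direction were named, and all genes of the decay-sensitive transcripts.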

Additional observations from a re-analysis of the deposited data

How the results depend on the processing

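Under DESeq2, limma-voom, RLE size factors, library totals and thinning, 6 of the 9 host transcripts were called higher, and 7 without the filter on low counts. At an adjusted p under 0.01 the number was 3, beside 3.33% of all tested genes, and it ran from 3 to 7 when libraries were left out singly. The 0 members called lower became 1, Snhg3, without the filter, and stayed at 0 without any single library. The 3 DEGs became 1 to 4 when a library was left out, with 1 without scrambled control 3. Of all tested genes, 1054 were called higher and 1039 lower. Leaving out single libraries gave 535 to 1372 higher and 457 to 1452 lower, and leaving out both scrambled control 3 and IFNγR1KO 12, an alternative added after seeing the data, gave 1447 and 1617. With library totals in place of TMM the split was 1174 higher and 755 lower. The median of all genes moved by at most 0.05 on the log2 scale under any alternative. Over 13 alternatives, snoRNP proteins called lower numbered 0 to 6 (3 in the analysis reported), nonsense-mediated decay factors 1 to 3 higher (1) and 0 to 1 lower (1), decay enzymes 0 to 1 higher (1) and 0 to 2 lower (1), TOP regulators 1 to 3 higher (2) and 0 to 2 lower (2), other listed snoRNA host lncRNAs 1 to 5 higher (3) and 0 to 2 lower (0), lncRNA hosts by annotation 1 to 5 higher (3) and 1 to 4 lower (1), and listed lncRNAs without a snoRNA 1 to 4 higher (2). Protein-coding hosts numbered 4 to 23 higher (12) and 6 to 29 lower (18), lncRNA genes 66 to 196 higher (154) and 17 to 75 lower (42), and ribosomal protein genes 0 to 7 higher (0) and 0 to 1 lower (0). The log2 fold change of Zbtb37, -0.03, was 0.0094 with library totals, 0.057 without both low libraries, and -0.215 to 0.0913 without single libraries, above 0 without scrambled control 1 and without scrambled control 3 (0.0324). That of Mcmdc2, 0.10, was -0.0762 to 0.304 without single libraries, with the low value without IFNγR1KO 11. The cause was not tested. No paired analysis was possible because the groups share no replicate number. Snhg3 had 15 to 82 counts a library and Epb41l4aos 56 to 115, and after thinning to the smallest total Epb41l4aos had an adjusted p of 0.0785 in edgeR, against 0.0963.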
